A study of Arabidopsis thaliana with 24 samples.

Results

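The 10 genes described here are mitotic genes of Arabidopsis thaliana. They encode 5 B-type cyclins, CYCB1;1 (locus AT4G37490), CYCB1;2 (AT5G06150), CYCB1;4 (AT2G26760), CYCB2;1 (AT2G17620) and CYCB2;2 (AT4G35620), the 4 B-type cyclin-dependent kinases CDKB1;1 (AT3G54180), CDKB1;2 (AT2G38620), CDKB2;1 (AT1G76540) and CDKB2;2 (AT1G20930), and the cytokinesis syntaxin KNOLLE (AT1G08560). They were taken by locus from a table of 23826 genes, and all 10 were present in it. The choice was made with earlier results of these data known. RNA was sequenced from ref6c, a mutant of the histone H3 lysine-27 demethylase REF6, and from the wild type Col, at 0, 6, 24 and 48 h of imbibition. Each genotype had 3 libraries at each time, 24 in all, and the series examined transcripts together with H3K27me3 and REF6 binding, of which the RNA is used here. The ecotype label of every sample was Col. After-ripened seeds, kept for at least 3 months at room temperature, were germinated on 1/2 MS medium in long days. The growth note of every sample, Col included, names the seed as ref6-1;REF6-HA, so the genotypes given here rest on the sample names and the genotype labels. Nothing states whether the libraries of a group came from separate seed batches, so p-values measure only the spread between these libraries.

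B-type cyclins bind cyclin-dependent kinases and drive the passage from G2 into mitosis, and are degraded through the anaphase-promoting complex as mitosis ends. CDKB kinases are particular to plants and their transcripts accumulate from late S phase to mitosis, those of the CDKB2 pair later than those of the CDKB1 pair. KNOLLE acts last, fusing vesicles into the cell plate that parts the daughter cells. Transcription of such genes is commonly driven by MYB3R factors, which bind the mitosis-specific activator (MSA) element in their promoters. In a dry Arabidopsis seed the embryo cells are arrested, mostly before DNA replication, and the radicle can emerge largely by cell elongation, with division following in the root tip. CYCB1;1 has a further known role outside mitosis, in the repair of DNA breaks, where it is induced through the transcription factor SOG1.

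Values are TPM, the share of a library that a gene's transcripts take after division by gene length, scaled to a total of 1000000, as the authors deposited them. In bulk seeds, fewer cells that express a gene and less RNA of that gene per cell cannot be told apart. The deposited values, multiplied by each gene's span including introns, gave whole reads within 0.001 for 99.97% of the values above 0, at recovered depths between 16628798 and 19263065 reads per library. At these depths 3 reads of KNOLLE came to between 0.155 and 0.236 TPM, so levels under that are a few reads at most. REF6 averaged 0.350 ± 0.185, 14.4 ± 0.892, 10.2 ± 1.69 and 8.35 ± 0.701 TPM in ref6c at 0, 6, 24 and 48 h, and 1.16 ± 0.273, 35.8 ± 3.67, 23.4 ± 2.87 and 14.8 ± 1.05 TPM in Col (SD, n = 3 each), with every ref6c library below every Col library of its time. The log2 differences of REF6 were -0.68, -1.26, -1.13 and -0.76 (adjusted p = 0.000486, 6.49e-08, 1.93e-07 and 1.58e-05), and values per gene do not show which part of REF6 the remaining reads cover. Transcripts of 9 listed seed storage and late embryogenesis genes took 10.4 to 10.6%, 4.57 to 4.88%, 1.81 to 3.46% and 2.12 to 2.28% of TPM in ref6c, and 12 to 12.4%, 4.84 to 5.53%, 0.85 to 1.17% and 0.431 to 0.529% in Col, with ref6c replicate 2 at 24 h the highest of that time.

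The 250 bases before the annotated gene start (TAIR10.1, RefSeq) are given for 5 genes, because 4 cyclins with several matches and a kinase with none show how MSA sequences are placed in genes that were all expressed at 48 h. Each runs 5′ to 3′ on the gene's strand, and capitals mark the MSA core AACGG or its reverse complement CCGTT. In the order given, they lie at chr4:17624309-17624558 (minus strand), chr5:1861704-1861953 (minus), chr2:7663805-7664054 (plus), chr4:16901346-16901595 (plus) and chr2:16152223-16152472 (plus).
CYCB1;1: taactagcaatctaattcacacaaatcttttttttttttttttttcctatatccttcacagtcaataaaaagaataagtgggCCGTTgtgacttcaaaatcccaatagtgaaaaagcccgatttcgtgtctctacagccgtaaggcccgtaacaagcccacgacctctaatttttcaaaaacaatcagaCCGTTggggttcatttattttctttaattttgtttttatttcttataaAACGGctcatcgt
CYCB1;2: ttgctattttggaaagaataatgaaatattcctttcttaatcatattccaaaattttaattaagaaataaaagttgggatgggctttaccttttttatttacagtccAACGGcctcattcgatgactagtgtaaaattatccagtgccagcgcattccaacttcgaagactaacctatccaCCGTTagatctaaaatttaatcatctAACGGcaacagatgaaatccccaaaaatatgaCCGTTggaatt
CYCB2;1: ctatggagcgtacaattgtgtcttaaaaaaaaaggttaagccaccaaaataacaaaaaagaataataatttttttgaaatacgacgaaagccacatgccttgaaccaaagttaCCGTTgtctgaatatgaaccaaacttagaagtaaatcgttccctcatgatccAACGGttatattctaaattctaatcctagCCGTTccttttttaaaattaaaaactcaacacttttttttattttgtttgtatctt
CYCB2;2: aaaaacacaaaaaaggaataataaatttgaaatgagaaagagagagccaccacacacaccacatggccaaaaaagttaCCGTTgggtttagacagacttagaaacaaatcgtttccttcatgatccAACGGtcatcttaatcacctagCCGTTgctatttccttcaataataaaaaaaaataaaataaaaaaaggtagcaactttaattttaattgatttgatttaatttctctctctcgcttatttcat
CDKB1;2: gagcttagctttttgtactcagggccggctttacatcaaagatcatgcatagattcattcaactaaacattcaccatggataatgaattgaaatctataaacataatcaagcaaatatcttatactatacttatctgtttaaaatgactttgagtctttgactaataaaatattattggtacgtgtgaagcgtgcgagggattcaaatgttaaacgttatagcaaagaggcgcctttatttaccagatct
The CYCB2 genes, on chromosomes 2 and 4, share 2 runs of at least 12 bases, and both runs hold a core match. One of 15 bases, tcatgatccAACGGt, begins 94 bases before the gene start on chromosome 2 and 133 bases before that on chromosome 4. The other, aaagttaCCGTTg, has 13 bases.

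In the window reaching 250 bases before and 50 bases after the gene start, 7 of the 10 genes held at least 1 core match on either strand, against 24.7% of 27443 protein-coding genes. At least 2 matches stood in 6 of them, against 4.89% of genes, and at least 3 in 5 of them, against 1.06%. CYCB1;2 had 5, CYCB1;1, both CYCB2 genes and KNOLLE had 3 each, CYCB1;4 had 2 and CDKB2;2 had 1. Both CDKB1 genes and the other CDKB2 gene had none in this window. The matches of KNOLLE began 12 bases before and 13 and 37 bases after its gene start, whereas those of both CYCB2 genes began 56 to 172 bases before. TTCCCGC, a sequence bound by E2F factors of the S-phase programme, was in none of the 10 and in 1.53% of all windows, searched on both strands. These are matches of letters and not measured binding.

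**Figure D1:**
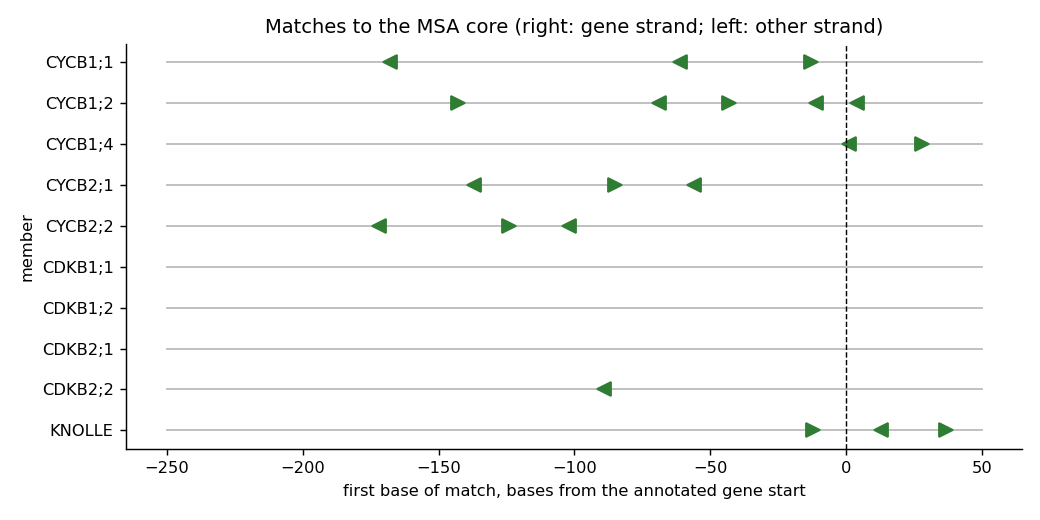
Positions of MSA core matches (triangles, right for the gene's strand and left for the other) along the window of each gene, in bases from the annotated start (dashed line). The cyclins and KNOLLE hold 2 to 5 matches each, and of the kinases 1 gene holds a match.

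CYCB1;1 stood alone among the 10 genes in peaking at 6 h of imbibition, whereas the 9 others were highest at 48 h. It had 28.9, 26.1 and 25.2 TPM in the ref6c libraries at 6 h, against 0.609, 0.221 and 0.203 TPM at 0 h. The Col libraries had 32.8, 32 and 43.9 TPM at 6 h, against 0.430, 0.328 and 0.440 TPM at 0 h. No 6 h library came near a 0 h library, and the ratio of means was 77.6 in ref6c and 90.7 in Col. On the log2(TPM + 1) scale used for every test, which understates changes of low genes, it rose by 4.38 ± 0.14 in ref6c (SE, adjusted p = 1.09e-18) and by 4.72 ± 0.14 in Col (adjusted p = 2.77e-19). By 24 h it had fallen to 4.02 ± 0.667 TPM in ref6c (log2 change -2.47, adjusted p = 3.9e-13) and to 4.10 ± 0.339 TPM in Col (log2 change -2.86, adjusted p = 2.1e-14), 0.150 and 0.113 of its 6 h level.

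At 6 h CYCB1;1 was lower in ref6c, at 26.7 ± 1.92 TPM, than in Col, at 36.2 ± 6.67 TPM (SD, n = 3 each), and the libraries did not overlap. The log2 difference of -0.41 ± 0.14 passed narrowly (adjusted p = 0.0497), and it was the 1 call among the 10 genes at 6 h, in a comparison that called 16% of the 18481 tested genes. Without Col replicate 3, the highest at 43.9 TPM, the difference was -0.27 (adjusted p = 0.28), and the call ended without any of 16 of the 24 libraries. The change over 0 to 6 h did not differ detectably between genotypes (log2 difference of changes -0.34, adjusted p = 0.354, in a test that called 8.05% of tested genes), nor did the change over 6 to 24 h (0.38, adjusted p = 0.223, with 15.8% of tested genes called). Neither of these tests of the changes called any of the 10 genes, with limma, with unadjusted p under 0.05 or with voom on recovered reads. Before 48 h KNOLLE and the cyclins other than CYCB1;1 held at most 9 reads per library. A difference in them could hardly be called.

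Genes of the DNA damage response, a set to which the repair role of this cyclin belongs, also rose at 6 h. All 5 listed genes were called higher at 6 h than at 0 h in each genotype, where 76% of tested genes rose in ref6c and 75% in Col. Their median log2 change was 1.46 in ref6c and 1.80 in Col, beside 1.29 and 1.23 for all genes. PARP2, a poly(ADP-ribose) polymerase, averaged 0.110, 32.3, 6.30 and 3.28 TPM at 0, 6, 24 and 48 h in ref6c and 0.171, 37.8, 8.30 and 4.27 TPM in Col (means of 3 libraries), so it too was highest at 6 h. BRCA1, a recombination mediator, averaged 0.0222, 7.50, 2.35 and 3.48 TPM in ref6c and 0.0112, 9.90, 2.97 and 5.10 TPM in Col. Unlike CYCB1;1, it rose again between 24 and 48 h in both genotypes. SOG1, which drives the response, varied less, at 5.26, 12.7, 9.08 and 7.67 TPM in ref6c and 5.83, 13.7, 10.1 and 7.75 TPM in Col. Its log2 change over 0 to 6 h, 1.14 in ref6c and 1.10 in Col, was below the median of all genes. So was that of ATM in ref6c (1.27). From 6 to 24 h 3 of the 5 fell in ref6c and 5 of 5 in Col, where 32.6% and 35.2% of tested genes fell. Over the 24 libraries, AT1G03940 (0.990) and SMP2 (0.989), a splicing factor, were among the genes most like CYCB1;1 by Pearson correlation of log2 values. These libraries share time and genotype, so the correlations describe a common time course and no more.

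**Figure D2:**
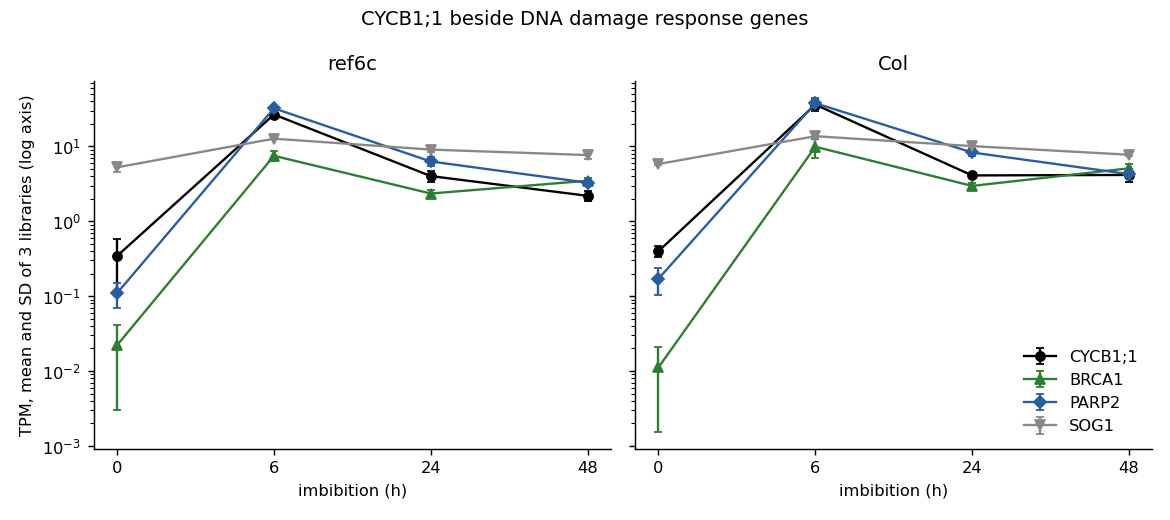
Mean TPM with SD of 3 libraries (log axis) at each imbibition time for CYCB1;1 and DNA damage response genes, ref6c left and Col right. The cyclin stands at 26.7 TPM in ref6c and 36.2 TPM in Col at 6 h, beside PARP2 at 32.3 and 37.8 TPM, and both are lower at 24 h (lower error bars stop at 95% of the mean where the SD is larger).

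The CDKB kinases appeared in steps before 48 h, at levels of a few TPM or less. CDKB2;1 had means of 0.484 ± 0.220, 2.57 ± 0.211, 1.99 ± 0.0787 and 15.8 ± 1.81 TPM in ref6c at 0, 6, 24 and 48 h, and 0.307 ± 0.127, 2.35 ± 0.512, 1.87 ± 0.593 and 20.9 ± 1.75 TPM in Col. It rose at 6 h by 1.28 ± 0.14 on the log2 scale in ref6c (adjusted p = 9.9e-09) and by 1.35 ± 0.14 in Col (adjusted p = 3.72e-09). The median change of all tested genes over 0 to 6 h was 1.29 in ref6c and 1.23 in Col. CDKB2;2, by contrast, stood at 0.173 ± 0.0300 TPM in ref6c and 0.235 ± 0.0889 TPM in Col at 6 h, and rose between 6 and 24 h to 1.37 ± 0.504 TPM in ref6c (log2 change 0.99, adjusted p = 2.56e-07) and to 1.47 ± 0.180 TPM in Col (1.00, adjusted p = 1.74e-07). Over that interval 35% of tested genes rose in ref6c and 38% in Col. CDKB1;1 also rose in it, by 0.52 in ref6c (adjusted p = 0.00138) and by 0.66 in Col (adjusted p = 0.000109), to 0.969 ± 0.221 TPM and 1.14 ± 0.261 TPM. CDKB1;2 remained under 0.7 TPM in every library before 48 h.

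Counted over the 0 to 6 h step, 3 of the 10 genes rose in ref6c and 5 in Col, against 76% and 75% of tested genes, and none fell. Beside the cyclin and the kinase just described these were CDKB1;1 in both genotypes (log2 change 0.33 in ref6c and 0.30 in Col) and, in Col, the other CDKB genes (0.46 in the CDKB1 and 0.29 in the CDKB2 subgroup). At 6 h KNOLLE and the cyclins other than CYCB1;1 held 5 reads or fewer per library. A rise in them could hardly be called. Most genes rose as a share of the library in this step, by a median of 1.29 on the log2 scale in ref6c and 1.23 in Col. With median-of-ratios scaling, which brings these medians to 0.00 and 0.02 and the Col calls over all genes to 7501 higher and 6901 lower (13856 and 1792 before), CDKB1;1 was no longer called in either genotype, CDKB2;1 was not called in ref6c (0.26, adjusted p = 0.105), CDKB2;2 was not called in Col (0.18, adjusted p = 0.156), and KNOLLE was called lower in both (-0.75 in ref6c and -0.55 in Col). Under that scaling the rise of the B1 cyclin was still called in both genotypes. Without one library, the call of CDKB1;1 ended in 4 cases in Col and in 2 in ref6c, and that of CDKB2;2 in Col ended in 5.

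The 4 other cyclins and KNOLLE were nearly silent until 48 h in both genotypes. Across the 18 libraries of 0, 6 and 24 h, CYCB1;4 and CYCB2;1 had 0 or 1 read per library, the other 2 cyclins at most 4 and KNOLLE at most 9. In dry seeds KNOLLE had 0.222, 0.467 and 0.167 TPM in ref6c and 0.217, 0.162 and 0.258 TPM in Col. At 6 h it had 0.378, 0 and 0 TPM in ref6c and 0.148, 0.0748 and 0 TPM in Col. The genotypes overlapped at each of these times, whereas in Col every 6 h library lay below every 0 h library. All these values were those of 9 reads or fewer. The fall of KNOLLE from 0 to 6 h was not called in the main fit. With voom on recovered reads it was called in ref6c (-2.39, adjusted p = 0.00619) and in Col (-1.93, adjusted p = 0.0246). At 24 h KNOLLE had 0, 0.0730 and 0 TPM in ref6c, against 0.0743, 0.310 and 0.156 TPM in Col, values that rest on a few reads and were not called different (adjusted p = 0.326). At 24 h the genotype differences of the 10 genes ran from -0.20 for KNOLLE to 0.08 for a kinase on the log2 scale, and limma called none, in a comparison that called 34.2% of tested genes. No difference at 24 h had an unadjusted p under 0.05, and voom on recovered reads called none. The count was also 0 without each library in turn, ref6c replicate 2 included. In dry seeds the counts by limma, by unadjusted p and by voom were 0 as well, where 12.7% of tested genes were called. At 0 and 24 h the 4 cyclins and KNOLLE held so few reads that a difference in them could hardly be called.

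**Figure D3:**
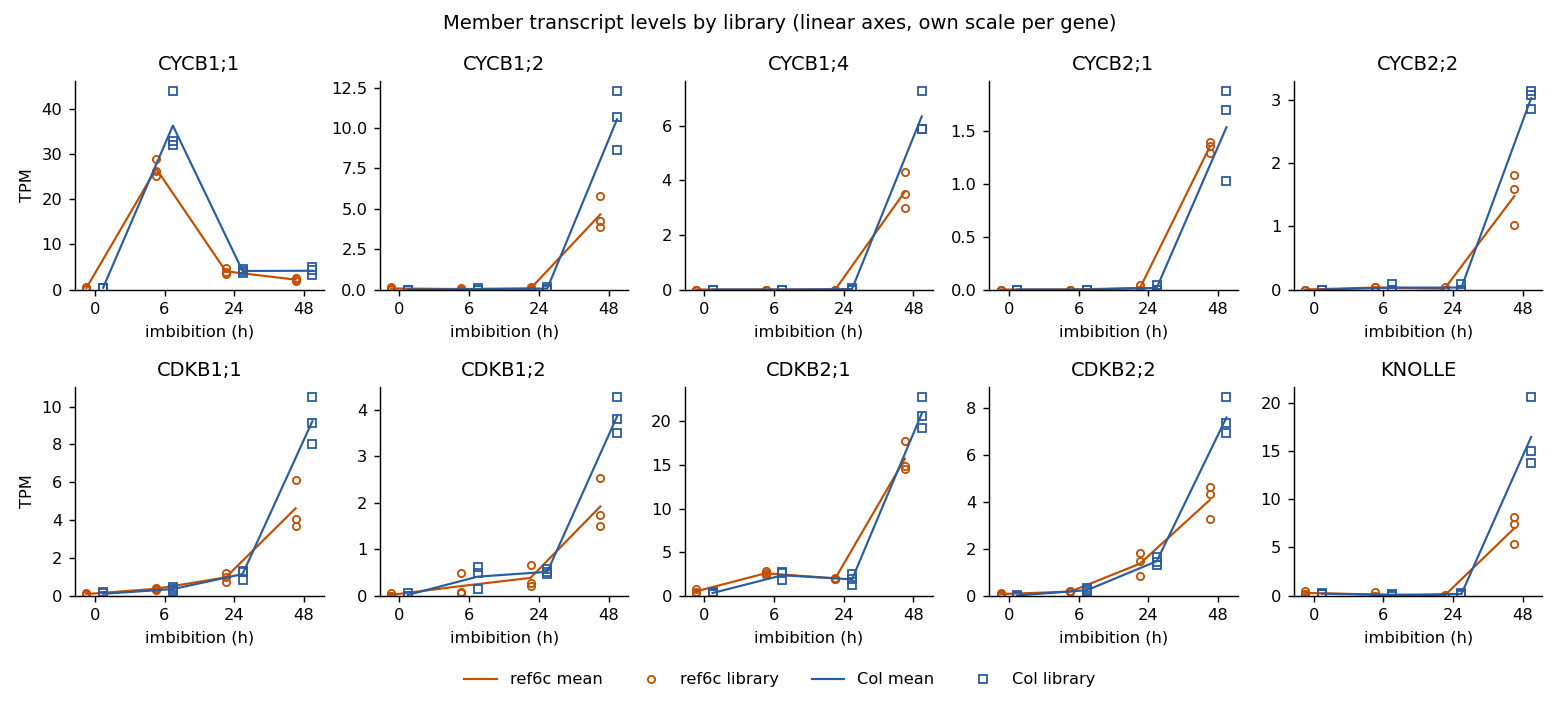
TPM of each gene at 0, 6, 24 and 48 h of imbibition (evenly spaced categories), with a point for each library and a line through the means, on a linear axis with its own scale per gene. 1 gene peaks at 6 h, at 26.7 TPM in ref6c and 36.2 TPM in Col, and the 9 other genes are highest at 48 h.

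Between 24 and 48 h every gene except CYCB1;1 rose in both genotypes. Of the 10 genes, 6 entered the test only through their 48 h libraries and so had to be higher there, and the comparison called 30.2% of tested genes higher in ref6c and 35.5% in Col. Of the kinases that had passed the filter earlier, CDKB2;1 was 7.93 times its 24 h level at 48 h in ref6c and 11.2 times in Col. For CDKB1;1 the ratios were 4.77 in ref6c and 8.04 in Col, and for CDKB2;2 they were 2.98 and 5.16. KNOLLE stood at 91.4 times its 24 h level in Col, and CYCB1;4, with 0 reads in the ref6c libraries at 24 h, was at least 25.1-fold higher in ref6c at 48 h against a floor of 3 reads per library. The exception took another course and fell in ref6c, to 2.19 ± 0.346 TPM at 48 h, against 4.02 ± 0.667 TPM at 24 h (log2 change -0.65, adjusted p = 0.000484, where 24.5% of tested genes fell). In Col it had 4.16 ± 0.842 TPM at 48 h, against 4.10 ± 0.339 TPM at 24 h (0.01, not called).

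At 48 h the cyclins were lower in ref6c for 4 of the 5 genes, at 44 to 56.7% of the Col mean. CYCB1;2, listed in the reference as CYC1BAT, had 5.80, 4.27 and 3.89 TPM in ref6c, against 10.7, 8.64 and 12.3 TPM in Col. Its highest ref6c library lay below its lowest Col library, and the log2 difference was -1.03 ± 0.11 (adjusted p = 5.7e-08). CYCB1;4 had 4.31, 2.98 and 3.49 TPM in ref6c, against 5.87, 5.87 and 7.27 TPM in Col (-0.68 ± 0.09, adjusted p = 7.26e-07). CYCB2;2 had 1.60, 1.82 and 1.03 TPM in ref6c, against 2.87, 3.15 and 3.09 TPM in Col (-0.72 ± 0.09, adjusted p = 4.93e-07). For both genes the groups were again apart. CYCB1;1 had 2.48, 2.28 and 1.81 TPM in ref6c, against 3.23, 4.35 and 4.89 TPM in Col (-0.69 ± 0.14, adjusted p = 0.000255), without overlap.

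CYCB2;1, the close relative of CYCB2;2, was the exception. It had 1.29, 1.40 and 1.36 TPM in ref6c, against 1.03, 1.70 and 1.88 TPM in Col, so the Col libraries lay on both sides of the ref6c libraries. The log2 difference of -0.09 ± 0.09 (adjusted p = 0.39) had a 95% interval from -0.28 to 0.09, which leaves out differences as large as that of its relative. Col replicate 1, with 22 reads, was the low one, and without it the difference was -0.25 (adjusted p = 0.00404). The promoter windows of both CYCB2 genes, given above, held 3 MSA cores each.

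All 4 kinases were lower in ref6c at 48 h. CDKB1;1 had 6.11, 4.05 and 3.70 TPM in ref6c, against 10.5, 8.03 and 9.13 TPM in Col (-0.88 ± 0.13, adjusted p = 5.79e-06). CDKB1;2 had 2.53, 1.5 and 1.74 TPM in ref6c, against 3.50, 4.28 and 3.81 TPM in Col (-0.75 ± 0.15, adjusted p = 0.000134). CDKB2;2 had 4.33, 4.63 and 3.28 TPM in ref6c, against 7.38, 6.96 and 8.47 TPM in Col (-0.77 ± 0.12, adjusted p = 1.5e-05). In each of these the groups were apart, with ref6c means at 49.7 to 53.7% of Col. CDKB2;1, the most abundant of the 10 at 48 h, differed least among the kinases, with 17.8, 14.9 and 14.5 TPM in ref6c, against 20.6, 19.3 and 22.8 TPM in Col. Its libraries did not overlap either, but the difference of -0.39 ± 0.14 (adjusted p = 0.0222) was not called without Col replicate 3 (-0.33, adjusted p = 0.0892), ref6c replicate 2 (-0.35, adjusted p = 0.0693) or ref6c replicate 3 (-0.33, adjusted p = 0.0843). With a pseudocount of 0.1 in place of 1, it was not called (-0.41, adjusted p = 0.192), nor was CDKB1;2 (adjusted p = 0.0595).

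KNOLLE, which the reference lists as SYP111, showed the largest difference of the 10 on the log2(TPM + 1) scale. It had 8.14, 7.48 and 5.4 TPM in ref6c, from 71 to 106 reads, against 13.8, 15.0 and 20.6 TPM in Col, from 177 to 262 reads. The groups were apart, the ref6c mean was 42.6% of Col, and the log2 difference was -1.12 ± 0.15 (adjusted p = 8.36e-07, 95% interval -1.43 to -0.82). KNOLLE (chr1:2709525-2711000, minus strand) shares 464 bases with NPQ1, a gene of the other strand that averaged 13.2 TPM over the 24 libraries. The strand setting of the read counting is not given in the sources used here, so reads in those bases cannot be told apart. Libraries before 48 h gave KNOLLE at most 9 reads, and the share of NPQ1 reads in its 48 h level was not tested. The 4 kinase genes overlap genes of the other strand by 44 to 281 bases. Of the 50-base stretches of the CYCB1;2 transcript 11.3% also occur elsewhere, so its level is uncertain to that extent.

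Counted together, 9 of the 10 genes were called lower in ref6c at 48 h and none higher, where 34.1% of tested genes were called lower and 22.1% higher. The median log2 difference was -0.73 for the 10 genes and -0.05 for all tested genes. In the same 9 genes no ref6c library reached the lowest Col library, a pattern found in 38.7% of tested genes. All 10 genes pass the filter on low values through their ref6c 48 h libraries alone, so the filter did not set this direction. Recomputed without organelle, storage and late embryogenesis genes in the total, the count was again 9.

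**Figure D4:**
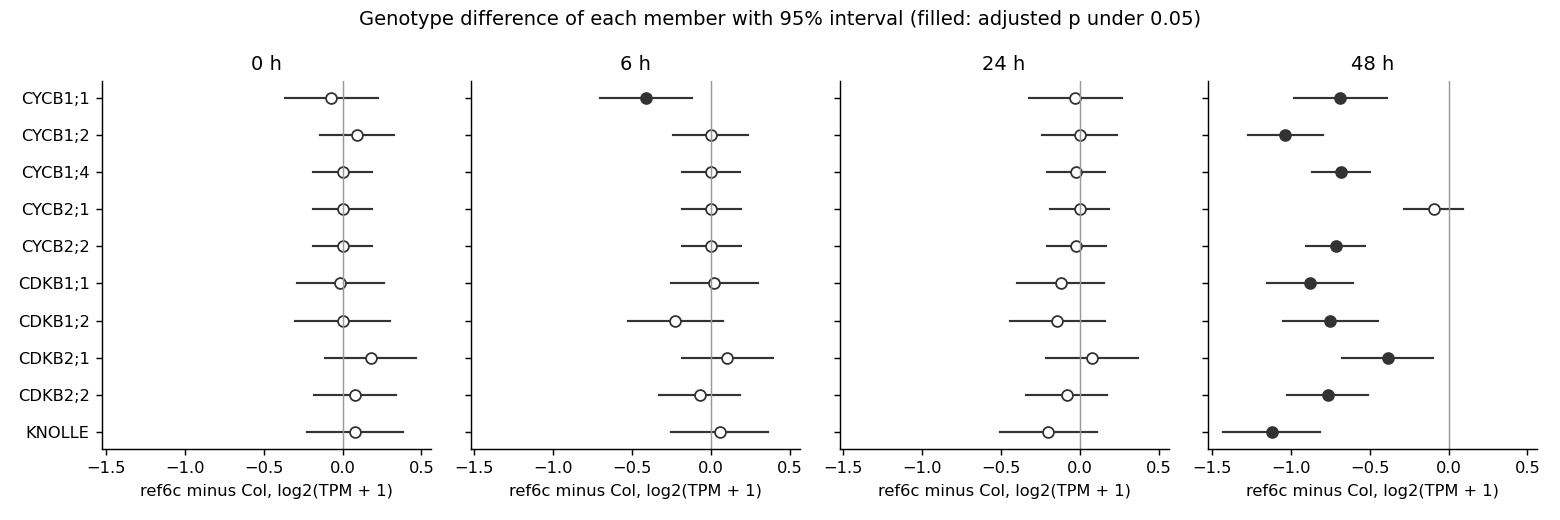
Difference of ref6c minus Col on the log2(TPM + 1) scale for each gene, with its 95% interval, at 0, 6, 24 and 48 h, filled where the adjusted p is under 0.05. At 24 h no gene is called and at 48 h 9 of 10 are called lower, from -0.39 to -1.12 for KNOLLE, and 1 cyclin of the CYCB2 pair is not called.

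In ref6c at 48 h the genes nevertheless stood above the Col level of 24 h. KNOLLE was higher by 2.75 and CDKB2;1 by 2.56 on the log2 scale. In all, 9 of the 10 were called higher and CYCB1;1 was called lower (-0.68, adjusted p = 0.00023), where 30.9% of tested genes were higher and 32.6% lower. Of the 9 genes, 6 passed the filter only through 48 h libraries and had to be higher.

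The change over 24 to 48 h was tested for a difference between genotypes, and it was lower in ref6c for 8 of the 10 genes. Of all tested genes 22% were called in this test, 16.2% lower. The values furthest from 0 were those of CYCB1;2 (-1.03, adjusted p = 2.7e-05) and KNOLLE (-0.92, adjusted p = 0.00184). CDKB2;1 (-0.46, adjusted p = 0.102) and CYCB2;1 (-0.09, adjusted p = 0.666) were not called. Without each library in turn the count was 6 to 8. Because most of these genes were close to 0 at 24 h, the difference of changes on the log2(TPM + 1) scale largely repeats the difference at 48 h. With a pseudocount of 0.1, which gives ratios more weight, none of the 10 was called, and voom on recovered reads called 1, CYCB1;1, which had -0.85 with that pseudocount (adjusted p = 0.108). Most differences were nevertheless about as large under both alternatives: with that pseudocount CYCB1;2 had -1.16 and CDKB1;1 -0.79, and with voom they had -1.18 and -0.81. KNOLLE had -0.09 with that pseudocount (adjusted p = 0.96) and 0.61 with voom (adjusted p = 0.691). CYCB1;4 had -0.62 with that pseudocount (adjusted p = 0.154) and -0.28 with voom (adjusted p = 0.772), beside -0.66 in the main fit.

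To compare genes with each other, reads were divided by exonic length. CDKB2;1 was the highest of the 10 at 48 h in both genotypes, at 18.8 exonic TPM in ref6c and 24.8 in Col. Below it in ref6c came a run of 5 genes in which no neighbours were apart, from KNOLLE at 5.46 through CDKB2;2 (5.05), CYCB1;2 (4.52) and CDKB1;1 (4.45) to CYCB1;4 at 3.33. CYCB1;1 followed at 2.38, and the CYCB2 pair and CDKB1;2 were last, at 1.47 to 1.5, with no neighbours apart. In Col KNOLLE at 12.8 again headed the run, which ended with CDKB1;1 at 8.85 and left CYCB1;4 below it at 5.86. The last in Col was CYCB2;1 at 1.66, below all libraries of the gene before it. At 6 h the peak of the B1 cyclin put it first, at 29.3 exonic TPM in ref6c and 39.5 in Col, with the leading kinase next at 3.08 and 2.80.

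The shape of the courses set CYCB1;1 apart from the rest. Over the 24 libraries, its standardized log2 profile had a Pearson correlation of 0.05 with the mean profile of the 10 genes, whereas the 9 others had 0.94 to 0.98, and the CYCB1 genes that rose at 48 h had 0.997 with each other. Outside the 10, the genes most like the mean profile were ATK1 (0.990), a kinesin of the spindle, AT3G44050 (0.990), CDC20.1 (0.987), an activator of the anaphase-promoting complex, ENODL2 (0.986), an early nodulin-like protein, and 3xHMG-box2 (0.984), a chromosome-associated protein. At 48 h 3xHMG-box2 averaged 12 TPM in ref6c and 27.0 TPM in Col, and ATK1 averaged 1.73 TPM in ref6c and 3.44 TPM in Col. Closest to KNOLLE were ENODL14 (0.995), AT4G01730 (0.994) and AT3G51280 (0.994), and ENODL14 averaged 10.7 TPM in ref6c and 37.1 TPM in Col at 48 h. The libraries share time and genotype, and 24 points in 8 groups are not 24 independent conditions.

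Other genes of the division machinery were read from lists by role. Among the other B-type cyclins none of 4 tested was called at 24 h and 3 were lower in ref6c at 48 h, where 22.2% and 34.1% of all tested genes were lower and 12% and 22.1% higher. CYCB1;3 averaged 1.87 TPM in ref6c and 4.35 TPM in Col (-0.88, adjusted p = 3.21e-07), CYCB2;4 2.38 and 4.74 TPM (-0.77, adjusted p = 1.41e-07) and CYCB3;1 0.827 and 1.84 TPM (-0.63, adjusted p = 1.16e-06). CYCB2;3 had 6.35 TPM in ref6c and 7.24 TPM in Col and was not called (-0.17, adjusted p = 0.175). Of 21 spindle and phragmoplast genes 2 were lower and 1 higher at 24 h and 16 lower and 1 higher at 48 h, with medians of -0.02 and -0.64, and HINKEL for one was near 0 at 24 h in both genotypes, where a difference could hardly show. Among them AUR1, a mitotic Aurora kinase, averaged 2.19 ± 0.135 TPM in ref6c and 6.94 ± 0.686 TPM in Col at 48 h (-1.31 ± 0.10), and HINKEL, the kinesin that activates the cytokinesis kinase cascade, 1.35 ± 0.170 and 4.45 ± 1.10 TPM (-1.20 ± 0.10). APC/C genes had 1 lower of 14 at 24 h and 7 at 48 h, CDC20.1 among them at 3.52 TPM in ref6c and 10.9 TPM in Col (-1.39).

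Genes of DNA replication were mostly lower at both 24 and 48 h. Of 24 tested, 17 were lower and 1 higher in ref6c at 24 h and 20 lower at 48 h, with medians of -0.46 and -0.70. Among all tested genes 22.2% were lower at 24 h and 34.1% at 48 h. PCNA1, the sliding clamp, averaged 33.8 ± 5.04 TPM in ref6c and 57.5 ± 1.89 TPM in Col at 24 h (-0.76), and 22.1 ± 2.91 and 57.2 ± 0.954 TPM at 48 h (-1.34). TSO2, a subunit of ribonucleotide reductase, was not called at 24 h (-0.05) and averaged 107 TPM in ref6c and 219 TPM in Col at 48 h (-1.02). The S-phase histone H3.1 genes had 1 of 5 lower at 24 h and 5 of 5 at 48 h, HTR1 among them at 149 ± 10.1 TPM in ref6c and 338 ± 21.1 TPM in Col (-1.18).

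Upstream regulators moved in both directions. Of 9 tested D-type cyclins, which start the cycle, 3 were lower and 1 higher at 24 h, and 6 lower and 1 higher at 48 h. CYCD3;1 averaged 9.40 ± 0.674 TPM in ref6c and 25.7 ± 2.58 TPM in Col at 48 h (-1.36), while CYCD2;1 averaged 135 ± 3.19 and 87.0 ± 2.71 TPM (0.63). Of 8 A-type cyclins, which act in S phase and G2, 3 were lower at 24 h and 5 at 48 h, with CYCA1;1 at 1.43 TPM in ref6c and 4.26 TPM in Col at 48 h (-1.11). The list of E2F, DP and RBR1 genes had 3 of 9 lower at 24 h, and 4 lower and 1 higher at 48 h, shares not far from the 22.2% and 34.1% of all tested genes, with E2FA at 3.30 ± 0.309 TPM in ref6c and 7.52 ± 0.720 TPM in Col (-0.98). Of the 4 MYB3R genes, MYB3R4, an activator that acts through the MSA element, was lower at 24 h (-0.42) and at 48 h (1.36 TPM in ref6c and 2.25 TPM in Col, -0.46), and MYB3R3, a repressor, was higher at 48 h (7.71 and 5.88 TPM, 0.34), with MYB3R5 also called higher.

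CDK inhibitors, which hold the kinases inactive, included 5 lower and 1 higher of 15 tested at 24 h and 10 lower and 2 higher at 48 h, with a median of -0.52 at 48 h. Of all tested genes 22.2% were lower and 12% higher at 24 h, and 34.1% and 22.1% at 48 h. SMR3 averaged 0.276 ± 0.136 TPM in ref6c and 4.95 ± 0.831 TPM in Col at 48 h (-2.22 ± 0.16), and SMR6 differed by -1.79 ± 0.15. In the list of CDKA, CKS and CDK-activating kinases 3 of 9 were lower at 24 h, and 4 lower and 1 higher at 48 h, with WEE1, which inhibits CDKs by phosphorylation, at 1.41 ± 0.0873 TPM in ref6c and 2.97 ± 0.105 TPM in Col (-0.72). By contrast, KRP4 (0.54) and KRP6 (0.39) were the inhibitors called higher at 48 h.

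The proteins that work with KNOLLE at the cell plate are for the most part made in non-dividing cells too. Of 9 KNOLLE partners and other syntaxins 3 were lower in ref6c at 24 h and 5 at 48 h. Of all tested genes 22.2% were lower at 24 h and 34.1% at 48 h. KEULE, the Sec1 protein that holds KNOLLE open for pairing, averaged 23.0 TPM in ref6c and 20.8 TPM in Col at 48 h and was not called (0.14, adjusted p = 0.258). Nor were SYP71, at 64.7 TPM in ref6c and 70.6 TPM in Col, VAMP721, at 68.5 and 72.6 TPM, and VAMP722, at 42.9 and 44.6 TPM, which are SNAREs of the KNOLLE complexes. At 24 h VAMP721 was lower, at 65.1 ± 0.711 TPM in ref6c and 76.4 ± 1.60 TPM in Col (-0.23, adjusted p = 0.00313). SNAP33, another of them, averaged 30.8 TPM in ref6c and 38.3 TPM in Col (-0.30, adjusted p = 0.00894). NPSN11, a SNARE that pairs with KNOLLE, was lower at 24 h (-0.79 ± 0.10, adjusted p = 3.18e-06) and at 48 h (17.0 ± 1.57 TPM in ref6c and 32.2 ± 1.88 TPM in Col, -0.88 ± 0.10), while KNOLLE itself was near 0 at 24 h. Of the plasma membrane syntaxins of the KNOLLE family, SYP122 averaged 0.991 ± 0.368 TPM in ref6c and 6.64 ± 1.67 TPM in Col at 48 h (-1.93 ± 0.17), SYP121 17.6 and 26.6 TPM (-0.56, adjusted p = 0.000127) and SYP132 19.3 and 24.0 TPM (-0.30, adjusted p = 0.00503).

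**Figure D5:**
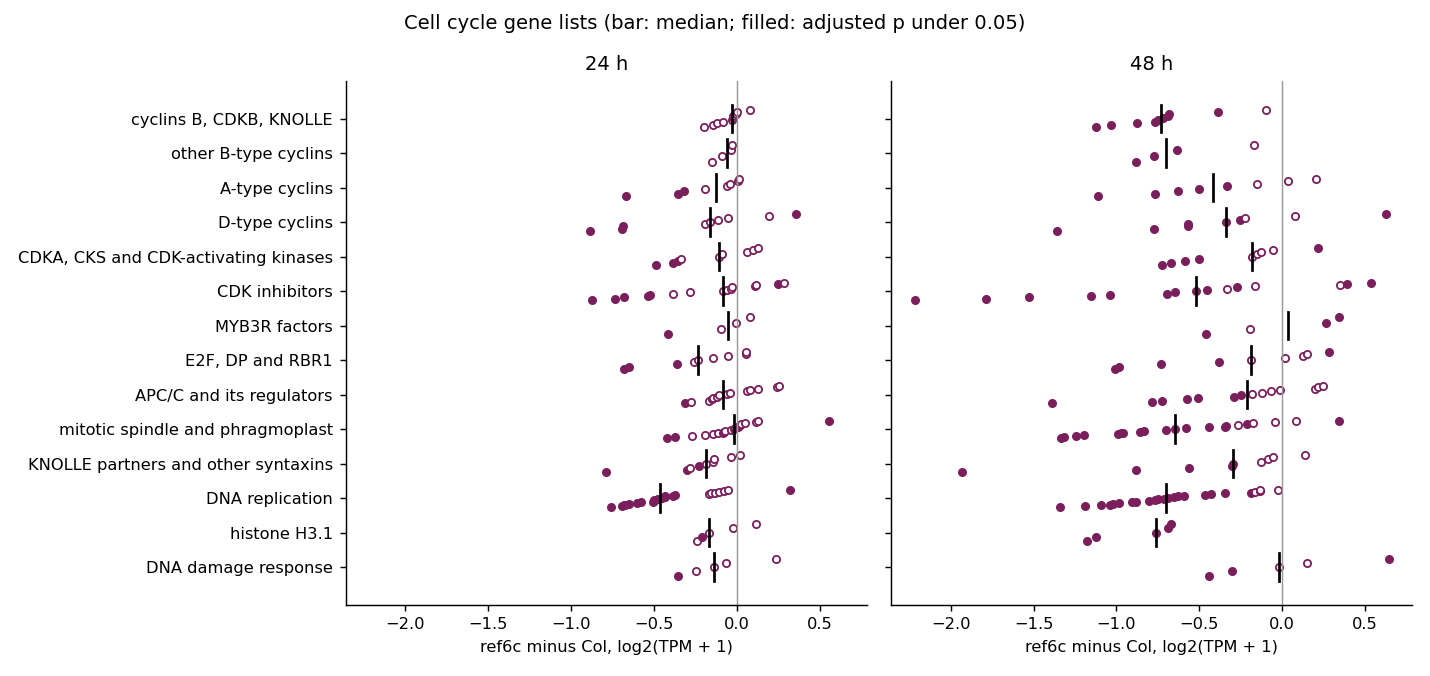
Difference of ref6c minus Col on the log2(TPM + 1) scale for each tested gene of the lists (points, filled where the adjusted p is under 0.05; bar, median of the list), at 24 and 48 h. The spindle and phragmoplast list has a median of -0.02 at 24 h and -0.64 at 48 h, and DNA replication -0.46 and -0.70.

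Some markers of seed tissues moved with the 48 h result. The summed level of 5 listed root meristem markers was 48.4 to 58.5 TPM in ref6c and 52.6 to 59.6 TPM in Col at 24 h, and 54.0 to 56.9 TPM in ref6c and 57.2 to 69.1 TPM in Col at 48 h, when 2 of the 4 tested were called lower. Shoot meristem markers summed to 6.66 to 8.65 TPM in ref6c and 7.37 to 7.78 TPM in Col at 48 h, with none of 3 called. UFO, too low to be tested, was at 0 in ref6c at 0, 6 and 48 h and in Col at 0 h. Endosperm markers summed to 1170 to 1640 TPM in ref6c and 504 to 607 TPM in Col at 48 h, with 2 of 2 tested higher. At 24 h they summed to 1130 to 1300 TPM in ref6c and 903 to 1060 TPM in Col. PHE1, one of them and too low to be tested, was at 0 in ref6c at every time and in Col at every time before 48 h. Pollen markers, of a tissue that seeds lack, summed to 7.38 to 8.88 TPM in ref6c and 14.1 to 17.5 TPM in Col at 0 h, and to at most 0.0483 TPM in ref6c and 0.225 TPM in Col at 48 h. The storage and late embryogenesis share, given above, was higher in every ref6c library than in any Col library at 48 h, and 9 of its 9 genes were called higher, with a median of 1.41. At 48 h 34.1% of all tested genes were called lower and 22.1% higher. The part of these tissues in the lower levels of the 9 genes was not tested.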

How the data were processed

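RNA from 24 libraries was used, 3 for each of 8 groups of genotype and time. The authors deposited TPM values per gene, and each column totals 1000000. Per the submitters' processing notes, which assign no roles, the build was TAIR10 and the tools were DESeq2 1.26.0, HISAT2 2.1.10 and fastp 0.20.1. The read counter and its strand setting are not given in the sources used here. Libraries were made with a BGISEQ-500 kit, per the labels' protocols.

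Genes with at least 1 TPM in at least 3 libraries (18481) entered 1 limma 3.58.1 fit (R 4.3.3) on log2(TPM + 1) over the 8 groups, with 16 residual degrees of freedom and 14 comparisons. P-values were adjusted by Benjamini-Hochberg over all tested genes within a comparison, and a gene was called under 0.05. The fit was tested on simulated data. Dividing by spans that include introns lowers genes with long introns, so levels were compared between genes only after rescaling to exonic length. Gene positions and sequences came from TAIR10.1 (RefSeq), and 23641 of 23826 rows were matched to it. Replicate numbers did not pair libraries. Alternatives were another pseudocount and filter, other scalings, a replicate block, a 2-fold minimum, voom on recovered reads and leaving out each library. The 10 genes and all lists were chosen with earlier results of these data known. Named genes were the 10 genes, those most like them, and from each list up to 2 of smallest adjusted p at 24 h and at 48 h. Others (the remaining B-type cyclins, KNOLLE partners, DNA damage genes, CDKA;1, 2 KRP inhibitors and MYB3R5) were added after their values were seen. One item that the rule for named genes would give is not reported here.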

Additional observations from a re-analysis of the deposited data

Results flagged for a closer look

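For 8 of the 10 genes the change over 24 to 48 h differed between genotypes, by a limma test of the difference of changes (ref6c minus Col, log2(TPM + 1) scale, 3 libraries a group), where 22% of tested genes were called and 16.2% were lower. The values were -1.03 for CYCB1;2, -0.92 for KNOLLE, -0.76 for CDKB1;1, -0.69 for CYCB2;2, -0.68 for CDKB2;2, -0.66 for CYCB1;1, -0.66 for CYCB1;4 and -0.60 for CDKB1;2. For CYCB1;1 the call ended without Col 48 h replicate 3 (-0.56), ref6c 24 h replicate 3 (-0.56) or ref6c 48 h replicate 3 (-0.57), and for CDKB1;2 it ended without any of 8 libraries. CDKB2;1 was called without Col 24 h replicate 2 (-0.61, adjusted p = 0.0273). With a pseudocount of 0.1 none of the 10 was called, and with voom on recovered reads 1 was, CYCB1;1, while KNOLLE turned to 0.61.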

How the results depend on the processing

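At 48 h the count of lower genes stayed between 8 and 10 without each library in turn, was 7 with a pseudocount of 0.1 and fell to 2 with a 2-fold minimum. At 6 h the count of 1 became 0 with a pseudocount of 0.1, with no filter, with median-of-ratios scaling, without organelle, storage and late embryogenesis genes, with only the compared groups, with the replicate block (CYCB1;1 -0.41, adjusted p = 0.0587) and with a 2-fold minimum, and was 0 to 1 without each library. The 0 to 6 h count, of calls in either direction, was 2 in Col with a 2-fold minimum and 3 to 5 without each library. In ref6c it was 6 with a pseudocount of 0.1, 5 with voom and 2 to 3 without each library. These ref6c counts include KNOLLE as called lower with that pseudocount (-1.12), with voom (-2.39) and without ref6c 6 h replicate 1 (-0.36). With voom KNOLLE was also called lower in Col (-1.93). The 6 to 24 h count was 1 in ref6c with a 2-fold minimum. For the difference of changes over 24 to 48 h the count was 0 with a pseudocount of 0.1, 1 with a 2-fold minimum, 1 with voom and 6 to 8 without each library, and KNOLLE turned to 0.61 with voom. The differences themselves remained about as large for most genes, for example -1.16 and -1.18 for CYCB1;2 and -0.79 and -0.81 for CDKB1;1 with that pseudocount and with voom. That of CYCB1;4 shrank to -0.28 with voom. Replicate numbers did not pair libraries: correlations of deviations were -0.19 to 0.39 over 33 pairs, and in 0 of 11 comparisons was every pair over 0.1. Apart from CYCB1;1 at 6 h, the replicate block ended the call of CDKB1;1 in Col over 0 to 6 h (adjusted p = 0.0509). Among 4718 single-gene values under alternatives, 95 lost their call without a change of sign, 41 of them without 1 library, and 17 gained one. A further 1, the KNOLLE value with voom just given, lost its call and changed sign. Over all genes, the dry-seed count of 2347 was 534 with only the compared groups, 3530 with median-of-ratios scaling (1972 higher and 1558 lower, against 382 and 1965) and 6061, 1268, 1446 and 1393 without ref6c 0 h replicates 1, 2 and 3 and Col 0 h replicate 2. The difference of changes over 0 to 6 h gave 1487 calls, and 3637 without ref6c 0 h replicate 1. Over 6 to 24 h it gave 2917, and 1910 with a pseudocount of 0.1. The cause was not tested. A 2-fold minimum left 256 of 2347, 393 of 2959, 858 of 6328 and 2561 of 10392 genotype calls at 0, 6, 24 and 48 h. It left 3768 of 12498 over 6 to 24 h and 1355 of 10104 over 24 to 48 h in ref6c, 4718 of 13540 and 3266 of 11776 in Col, 322 of 1487, 723 of 2917 and 1633 of 4059 for the 3 differences of changes, and 2390 of 11733 for ref6c at 48 h against Col at 24 h. Depth limits KNOLLE and the cyclins other than CYCB1;1 before 48 h, where a library held 9 reads or fewer.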

Other observations

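CDKA;1, the kinase that partners most plant cyclins, had a different course from the CDKB genes, with most of its level reached at 6 h. It averaged 4.71, 50.4, 57.0 and 65.5 TPM in ref6c at 0, 6, 24 and 48 h, and 5.96, 53.4, 52.0 and 56.1 TPM in Col. At 48 h it was higher in ref6c (log2 difference 0.22 ± 0.09, adjusted p = 0.0402), in the opposite direction to the 4 CDKB genes. In that comparison 22.1% of tested genes were called higher. CYCB1;5, a further B-type cyclin, did not pass the filter on low values and averaged 0.822 TPM in ref6c and 0.820 TPM in Col at 48 h.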
